A study of Mus musculus with 6 samples.

Results

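The nuclear genes of respiratory complexes II to V were examined in the substantia nigra (SN) of mice that lack the mitochondrial transcription factor Tfam in dopamine neurons. Members were chosen by symbol: Sdha, Sdhb, Sdhc, Sdhd, Cyc1, and every symbol that begins with Uqcr, Cox4, Cox5, Cox6, Cox7, Cox8 or Atp5, provided that the mean over the 6 mice was above 1 CPM (counts scaled by library size). Of the 24054 genes in the table, 48 carried such a symbol and 45 of these passed the level limit, 4 of complex II, 9 of complex III, 15 of complex IV and 17 of complex V. Cox7b2, Cox8b and Cox8c stayed below it. Cox8c had no count in any mouse, Cox7b2 had 0 to 3 counts and Cox8b 0 to 4 counts per mouse, with mean levels of 0.139 CPM for Cox7b2 and 0.167 CPM for Cox8b. The member nearest above the limit was Cox4i2, with a mean of 1.14 CPM. Each of the 45 members had a group mean above 1 CPM in both groups, so none was admitted through the higher group alone.

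Bulk RNA sequencing compared 3 MitoPark mice with 3 littermate controls, all on a C57BL/6 background and 16 to 17 weeks old. The study's methods take controls from litters of MitoParks or of the parental strain, so a control named littermate need not share a litter with a MitoPark. MitoParks carry Cre recombinase at the dopamine transporter locus and 2 floxed Tfam alleles (Dat+/Cre: Tfam LoxP/LoxP), and the controls carry 1 floxed and 1 wild type Tfam allele without Cre (Tfam+/LoxP: Dat+/+). The question was what the loss of Tfam in dopamine neurons does to the RNA of the SN. Recombination is confined to cells that use the dopamine transporter promoter, whereas the dissected SN also holds glia, vessels and other neurons with intact Tfam.

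Complex II (succinate dehydrogenase) passes electrons from succinate to ubiquinone, complex III (cytochrome bc1) passes them on to cytochrome c, complex IV (cytochrome c oxidase) hands them to oxygen, and complex V (ATP synthase) makes ATP from the proton gradient that complexes III and IV help to build. Complex II is encoded in the nucleus alone. Cytochrome b of complex III, the catalytic core of complex IV and part of the membrane sector of complex V are encoded in mitochondrial DNA, which Tfam packages and transcribes, and the remaining subunits come from the nuclear genes described here. Dopamine neurons of the SN fire as pacemakers and depend strongly on oxidative phosphorylation. Nuclear respiratory factor 1 (NRF1) binds the promoters of many genes of the respiratory chain.

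Promoters of 4 members, 1 for each complex, are shown because all of them hold the core of the NRF1 motif on either strand, in capitals. The core is GCGCA and GCGC with any 1 base between them. On the opposite strand it reads GCGC and TGCGC with any 1 base between them, as in the first stretch of Uqcrc1. The sequences are from RefSeq on GRCm38.p6 and run from 250 bases before to 50 bases after the gene start, 5′ to 3′ on the strand of the gene. The windows are chr9:50603800-50604099 (minus strand) for Sdhd, chr9:108936398-108936697 (plus strand) for Uqcrc1, chr5:115348909-115349208 (minus strand) for Cox6a1 and chr15:102670998-102671297 (minus strand) for Atp5g2.
Sdhd: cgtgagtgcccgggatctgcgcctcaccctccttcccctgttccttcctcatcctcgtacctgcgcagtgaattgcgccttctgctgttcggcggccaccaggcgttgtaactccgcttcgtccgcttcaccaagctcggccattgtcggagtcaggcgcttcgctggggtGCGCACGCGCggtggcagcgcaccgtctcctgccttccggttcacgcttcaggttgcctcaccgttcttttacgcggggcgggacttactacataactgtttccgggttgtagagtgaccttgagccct
Uqcrc1: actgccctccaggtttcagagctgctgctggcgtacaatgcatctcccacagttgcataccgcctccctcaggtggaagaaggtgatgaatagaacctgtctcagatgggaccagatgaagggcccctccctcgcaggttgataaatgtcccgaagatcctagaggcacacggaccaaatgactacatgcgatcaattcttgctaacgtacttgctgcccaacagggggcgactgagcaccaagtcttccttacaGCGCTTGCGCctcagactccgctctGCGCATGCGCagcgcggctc
Cox6a1: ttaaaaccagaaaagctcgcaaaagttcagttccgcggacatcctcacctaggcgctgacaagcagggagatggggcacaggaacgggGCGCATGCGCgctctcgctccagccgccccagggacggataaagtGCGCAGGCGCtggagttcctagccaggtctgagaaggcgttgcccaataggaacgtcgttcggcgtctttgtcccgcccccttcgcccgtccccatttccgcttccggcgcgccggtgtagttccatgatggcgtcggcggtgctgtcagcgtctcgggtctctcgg
Atp5g2: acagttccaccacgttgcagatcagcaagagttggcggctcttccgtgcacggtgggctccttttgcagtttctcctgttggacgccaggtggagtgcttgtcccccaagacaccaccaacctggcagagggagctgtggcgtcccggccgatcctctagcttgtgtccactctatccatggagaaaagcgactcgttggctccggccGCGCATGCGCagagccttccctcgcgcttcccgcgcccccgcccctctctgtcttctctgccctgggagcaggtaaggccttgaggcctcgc
Sdhd and Atp5g2 had 1 match each, and Uqcrc1 and Cox6a1 had 2 each. A promoter was listed for 32 of the 45 members, and 10 of these 32 held the motif on either strand, against 5.19% of the 27025 promoters of the same length. The 10 were Sdha and Sdhd of complex II, Uqcrc1 of complex III, Cox6a1 of complex IV, and Atp5c1, Atp5g2, Atp5g3, Atp5h, Atp5k and Atp5o of complex V. The binding core of ETS factors, CCGGAAG, stood in 12 of the 32 against 9.93% of all promoters, and the YY1 core AAGATGG in 3 of 32 against 7.28%. TATAAA stood in 1 of 32, that of Atp5l, against 15.7% of all promoters. A match describes the letters in the window and no binding was measured.

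The table held estimated counts that summed to 8140777 to 10528602 per mouse. Tfam, the targeted gene, was at 40.3, 44.4 and 45.5 CPM in the controls and at 32.7, 33.1 and 33.2 CPM in the MitoParks. Its groups did not overlap, with a log2 fold change of -0.40 ± 0.11 (SE, adjusted p = 0.999 in edgeR) and an unadjusted p of 0.00565. The SN identity was checked with 9 markers of dopamine neurons, whose summed level was 449 to 1479 CPM in the controls and 298 to 549 CPM in the MitoParks. Among them is Slc6a3, the dopamine transporter gene, which carries Cre on 1 allele in MitoParks. It was at 72.6, 65.3 and 383 CPM in the controls and at 13.3, 51.1 and 40.9 CPM in the MitoParks. The part of the altered allele in this difference was not tested. Control 3 stood apart with the highest sum in the 9 markers. The dopamine neuron factor Pitx3 had no count in MitoPark 1 but was low in most mice. It was at 0.557, 0.475 and 3.71 CPM in the controls and at 0.506 and 0.454 CPM in MitoParks 2 and 3. Oligodendrocyte markers ranged from 6335 CPM in control 1 to 16995 CPM in control 3. Choroid plexus markers summed to 182 CPM in control 2, mostly Ttr, against 20.6 to 55.1 CPM in the other 5 mice. In bulk tissue, fewer cells of a type and less RNA per cell cannot be told apart.

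None of the 45 genes was called as changed between MitoParks and littermate controls. No member had an unadjusted p below 0.05 in edgeR or in DESeq2, where 1.11% of the 14568 genes tested did so in edgeR. None passed the combined cutoff of p below 0.05 and a change above 1.5-fold, which 0.577% of all genes passed, and after adjustment over all genes no gene of the table passed 0.05. The 3 values of the MitoParks overlapped those of the controls for every member. Over all genes the groups were apart in 4.71%, with MitoParks above in 2.43% and below in 2.28%. With shares this small, none among 45 members lies near the share of the whole table and does not set the members apart. The smallest unadjusted p among the members was 0.253, for Cox6a2, and the smallest adjusted p was 0.999. By the sign of the fitted change, 19 members were higher and 26 lower in MitoParks, where 48.6% of all genes were higher, and with scaling to total counts in place of TMM 26 members were higher. The median log2 fold change was -0.01 over the members and -0.0047 over all genes tested.

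The data bounded the changes that could have been missed in the RNA of the whole SN. They do not bound a change confined to the dopamine neurons, which are only a part of the cells dissected. For 41 of the 45 members the 95% interval of the change lay within 1.5-fold in either direction, and the widest limits among them were 0.752-fold and 1.33-fold. Over all genes tested 66.5% had so narrow an interval. The 4 exceptions, Cox4i2, Cox6a2, Cox6b2 and Cox7a1, are low isoforms that had few counts. The median SE of the log2 fold change was 0.119 over the members. The median coefficient of variation of a member was 10.5% among controls and 8.35% among MitoParks, against 11.7% and 13.1% for all genes tested.

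**Figure D1:**
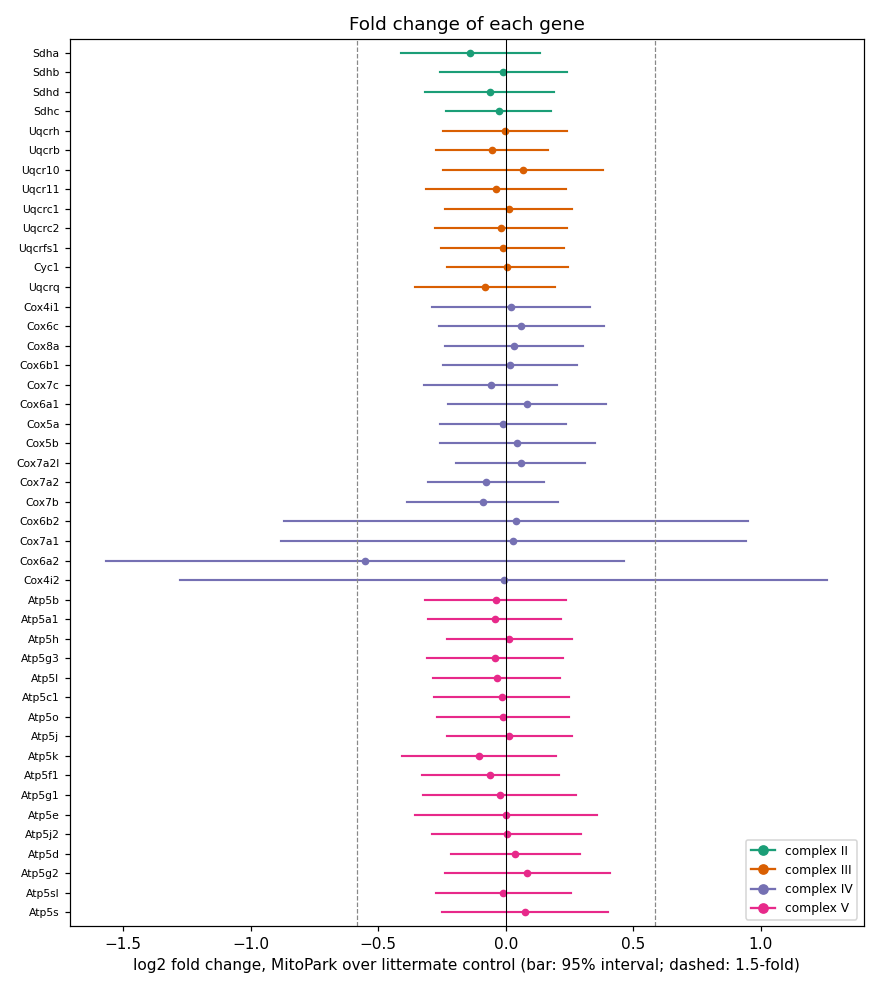
Log2 fold change of each of the 45 genes, MitoPark against control, grouped by complex, with points for the edgeR estimate and bars for its 95% interval. All intervals cross 0, and those of Cox4i2, Cox6a2, Cox6b2 and Cox7a1 reach beyond the limits of 1.5-fold.

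All 4 genes of complex II were lower in MitoParks by the sign of the estimate, Sdhb not so with scaling to total counts, and the values of the groups overlapped for each gene. Summed over the 4 genes, complex II stood at 786, 903 and 867 CPM in the controls and at 808, 843 and 733 CPM in the MitoParks. The means were 852 ± 59.8 CPM and 794 ± 56.3 CPM (SD, n = 3 each), and the ranges overlapped. Sdha, the flavoprotein that oxidises succinate, was at 516, 595 and 581 CPM in the controls and at 513, 560.1 and 463 CPM in the MitoParks. MitoPark 3 was the lowest of the 6, MitoPark 1 lay just below control 1, and MitoPark 2 lay within the control range. The log2 fold change of Sdha was -0.14 ± 0.12 (SE, 95% interval -0.41 to 0.13), and its unadjusted p of 0.281 was the smallest of the complex.

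Sdhb carries the iron-sulfur clusters that take electrons from the flavin. It was at 94.8, 116 and 102 CPM in the controls and at 108, 105 and 98.1 CPM in the MitoParks, so that all MitoParks lay between the controls. The membrane anchor Sdhd, with the promoter shown above, was at 73.5, 88.6 and 80.8 CPM in the controls and at 83.1, 77.4 and 72.2 CPM in the MitoParks. Its log2 fold change was -0.06 ± 0.11 (SE, 95% interval -0.31 to 0.19), and MitoPark 3 and control 1 were the lowest mice. The other anchor, Sdhc, was the steadiest gene of the complex, at 102, 103 and 104 CPM in the controls and at 104, 100.2 and 98.8 CPM in the MitoParks, a ratio of highest to lowest of 1.05. Divided by transcript length, the mean levels over the 6 mice were 186 CPM per kilobase for Sdha, 91.1 for Sdhb, 64.4 for Sdhd and 32.1 for Sdhc. The ranges of neighbours in this order did not overlap, and the order was the same in 6 of 6 mice. The same length was used in every mouse, so this agreement says nothing about the lengths. Before division Sdhc, with 3171 bases, lay above Sdhd, with 1231 bases, at means of 101.8 and 79.2 CPM.

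**Figure D2:**
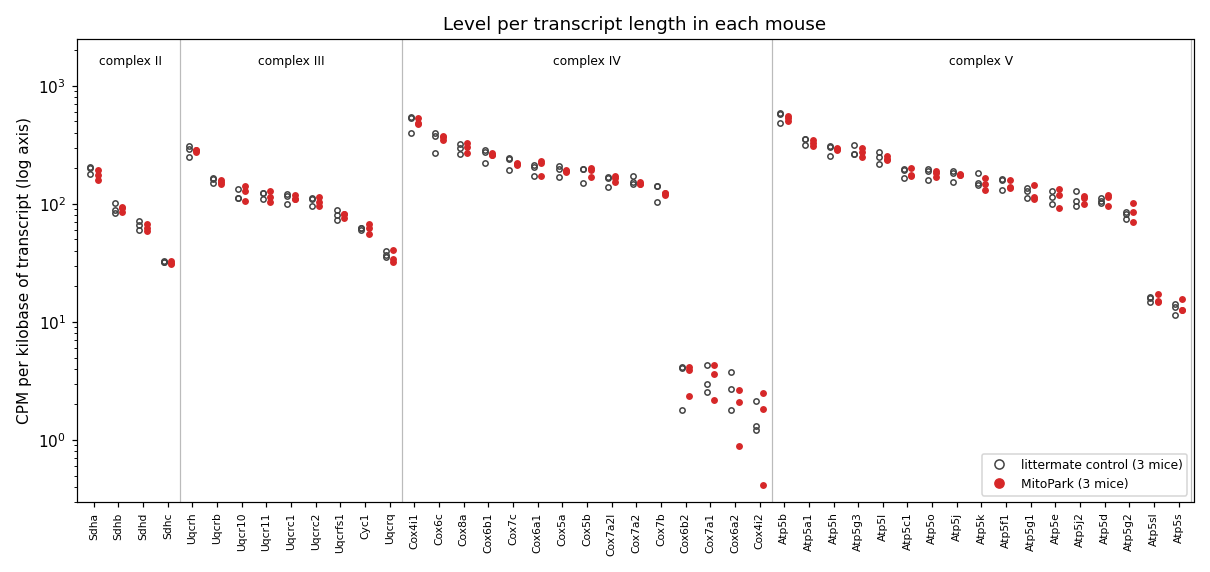
Level of each of the 45 genes in CPM per kilobase of transcript on a log axis, with 1 point per mouse coloured by group and the genes ordered within each complex. The points of the 2 groups lie over each other for every gene, and Cox6b2, Cox7a1, Cox6a2 and Cox4i2 lie far below the other genes of complex IV.

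For complex III the groups differed by less than the spread between mice, with sums of 906, 1050 and 1021 CPM in the controls and 1031, 958 and 968 CPM in the MitoParks. The means were 992 ± 75.9 CPM and 986 ± 40.0 CPM (SD, n = 3 each). Of the 9 genes, 3 were higher and 6 lower by sign, and the smallest unadjusted p was 0.522, for Uqcrq. This small subunit, which helps to bind ubiquinone, was at 54.2, 60.1 and 56.3 CPM in the controls and at 61.3, 48.6 and 51.5 CPM in the MitoParks (-0.08 on the log2 scale, 95% interval -0.36 to 0.19). Cyc1, the cytochrome c1 that reduces cytochrome c, was at 91.0, 95.6 and 94.1 CPM in the controls and at 102, 84.8 and 95.1 CPM in the MitoParks. The highest and the lowest of the 6 were thus both MitoParks, and the log2 fold change was 0.0067 ± 0.10 (SE, 95% interval -0.23 to 0.24). Uqcrfs1, the Rieske iron-sulfur protein, was at 99.7, 121 and 109.9 CPM in the controls and at 112, 104 and 112 CPM in the MitoParks, all inside the control range.

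The core proteins Uqcrc1 and Uqcrc2 lie on the matrix side of complex III. Uqcrc1 was at 164, 193 and 199 CPM in the controls and at 198, 180.2 and 183 CPM in the MitoParks (log2 fold change 0.01, 95% interval -0.24 to 0.26). Uqcrc2 was at 182, 213 and 209 CPM in the controls and at 197, 218 and 181 CPM in the MitoParks (-0.02, 95% interval -0.28 to 0.24). In both, control 1 lay at the low end of the controls. Among the small subunits, the hinge protein Uqcrh was highest per length, at 283 CPM per kilobase, and Uqcrq was lowest, at 36.4. The low place of Uqcrq rests on the length used for it, 1521 bases against 434 for Uqcr10 and 445 for Uqcr11. Before division by length the means of these 3 genes were close, at 55.3, 53.4 and 52.4 CPM. Uqcrh, Uqcrb and Uqcr11 had estimates between -0.05 and -0.0043 on the log2 scale, with the lowest mouse being control 1 for Uqcrh and MitoPark 2 for the other 2. Uqcr10 had the largest positive estimate of the complex, with 49.1, 58.2 and 49.1 CPM in the controls and 61.8, 46.1 and 56.3 CPM in the MitoParks (0.07, 95% interval -0.24 to 0.38). MitoPark 1 was highest and MitoPark 2 lowest for Uqcr10. Per length, Uqcrb at 156 CPM per kilobase stood between Uqcrh and a run of 4 genes, Uqcr10 at 123, Uqcr11 at 118, Uqcrc1 at 113 and Uqcrc2 at 105, whose neighbours overlapped between mice. Uqcrfs1 at 80.4 and Cyc1 at 61.7 followed.

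For complex IV the sums were 1513, 1933 and 1920 CPM in the controls and 1813, 1727 and 1880 CPM in the MitoParks, with means of 1789 ± 239 CPM and 1807 ± 76.7 CPM (SD, n = 3 each). Control 1 lay below the other 5 mice, and the MitoParks lay between it and the other controls. Of the 15 genes, 9 were higher and 6 lower by sign, with a median log2 fold change of 0.02. Cox4i1, the ubiquitous isoform of subunit 4, which regulates the enzyme, was at 299, 394 and 403 CPM in the controls and at 351, 361 and 399 CPM in the MitoParks (0.02, 95% interval -0.29 to 0.33). Cox5a and Cox5b flank the catalytic core on the matrix side. Cox5a was at 108, 135 and 126 CPM in the controls and at 119.6, 122 and 125 CPM in the MitoParks, and Cox5b was at 129.5, 172 and 172 CPM in the controls and at 167, 146 and 175 CPM in the MitoParks. For each of these 3 genes control 1 was the lowest of the 6 mice.

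Control 1 was also lowest for most of the remaining common subunits. Cox6a1, with the promoter shown above, was at 97.6, 121 and 117 CPM in the controls and at 126, 98.4 and 132 CPM in the MitoParks (0.08, 95% interval -0.23 to 0.39). Cox7b was at 105, 143 and 142 CPM in the controls and at 123, 119 and 125 CPM in the MitoParks, so that every MitoPark lay between control 1 and the other controls. Cox8a, a small membrane subunit, was at 144, 176 and 164 CPM in the controls and at 181, 147 and 168 CPM in the MitoParks. Control 1 was lowest in all 3 of these genes. Cox7a2l was classed here as a factor of the supercomplexes of complexes III and IV and not as a common subunit. Its function in these mice was not tested. Cox7a2l was at 149.6, 179 and 181 CPM in the controls and at 179, 166 and 186 CPM in the MitoParks (0.06, 95% interval -0.19 to 0.31). Cox6b1, which faces the space between the membranes, and Cox6c, Cox7a2 and Cox7c, which are small membrane subunits, had estimates between -0.08 and 0.06 on the log2 scale. Of these, only Cox7a2 did not have its lowest value in control 1. Per length, Cox4i1 was highest at 494 CPM per kilobase, then Cox6c at 357, Cox8a at 297, Cox6b1 at 263, Cox7c at 222, Cox6a1 at 202, Cox5a at 190.0, Cox5b at 185, Cox7a2l at 161, Cox7a2 at 153 and Cox7b at 126. The ranges of neighbours in this order overlapped except for Cox4i1 over Cox6c and Cox7a2 over Cox7b.

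Complex IV has isoforms known mainly from other tissues, Cox6a2 and Cox7a1 from heart and skeletal muscle, Cox6b2 from testis and Cox4i2 from lung and vessels. All 4 were detected in every mouse, at 3 to 27 counts. Cox4i2 had 8, 10 and 16 counts in the controls and 11, 3 and 16 in the MitoParks, Cox6b2 had 9, 24 and 23 and then 19, 13 and 19, and Cox7a1 had 9, 18 and 12 and then 7, 14 and 15. Per length, Cox4i2 made up 0.316% ± 0.0755 of Cox4i1 and Cox4i2 together in the controls and 0.313% ± 0.200 in the MitoParks (SD, n = 3 each). Cox6b2 made up 1.23% ± 0.363 and 1.30% ± 0.340 of its pair, and Cox7a1 2.03% ± 0.399 and 2.21% ± 0.745 of Cox7a1 and Cox7a2 together. The shares of these 3 differed by less than the spread between mice.

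Cox6a2 had the largest estimate of all members, with 11, 27 and 19 counts in the controls and 5, 14 and 16 in the MitoParks. These corresponded to 1.23, 2.56 and 1.86 CPM and to 0.609, 1.42 and 1.81 CPM. MitoPark 1 was lowest, and MitoParks 2 and 3 lay within the control range. The log2 fold change was -0.55 ± 0.45 (SE, 95% interval -1.57 to 0.47), so that a fall to 0.338-fold and a rise to 1.38-fold were both within the interval. The share of Cox6a2 in Cox6a1 and Cox6a2 together was 1.37% ± 0.355 in the controls and 0.914% ± 0.442 in the MitoParks (SD, n = 3 each), and at this depth no difference was detectable. Muscle markers summed to 4.30 to 6.80 CPM over the 6 mice. Markers of parvalbumin and GABA neurons summed to 727 to 1068 CPM in the controls and 760 to 1129 CPM in the MitoParks. Which cells the Cox6a2 counts came from was not tested.

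For complex V the sums were 3301, 3865 and 3787 CPM in the controls and 3622, 3654 and 3464 CPM in the MitoParks, with means of 3651 ± 306 CPM and 3580 ± 102 CPM (SD, n = 3 each). Control 1 was again the lowest mouse. Of the 17 genes, 7 were higher and 10 lower by sign, with a median log2 fold change of -0.01 that became 0.0037 with scaling to total counts, and the smallest unadjusted p was 0.456, for Atp5k. The catalytic head is built from Atp5a1 (subunit alpha) and Atp5b (subunit beta, which holds the catalytic sites). Atp5b was at 933, 1096 and 1119.8 CPM in the controls and at 1028, 1069 and 966 CPM in the MitoParks (-0.04, 95% interval -0.32 to 0.24). Atp5a1 was at 780.0, 876 and 869 CPM in the controls and at 817, 865 and 767 CPM in the MitoParks (-0.04, 95% interval -0.30 to 0.22). For Atp5a1, MitoPark 3 was the lowest mouse, followed by control 1. The rotor subunit gamma, Atp5c1, was at 192, 228 and 229 CPM in the controls and at 204, 237 and 200.002 CPM in the MitoParks. For the other rotor subunits, Atp5d and Atp5e, MitoPark 2 was the lowest mouse, and the log2 fold changes were 0.04 and 0.0013.

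The peripheral stalk, which holds the head still, is formed by Atp5f1, Atp5h, Atp5j and Atp5o. Atp5h was at 159.6, 190.0 and 195 CPM in the controls and at 180.0, 187 and 182 CPM in the MitoParks, and Atp5o was at 133, 165 and 159 CPM in the controls and at 141, 159 and 154 CPM in the MitoParks. All MitoParks lay inside the control range for both genes. Atp5f1, with a log2 fold change of -0.06, and Atp5j, with 0.01, had control 1 lowest as well. The membrane subunits Atp5j2, Atp5k and Atp5l, which shape the dimers of the enzyme, were highest in control 2. Atp5k had the most negative estimate of the complex, with 53.7, 67.2 and 56.3 CPM in the controls and 61.4, 48.3 and 55.2 CPM in the MitoParks (-0.10, 95% interval -0.41 to 0.20).

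The rotating c ring is made of a single mature protein that 3 genes encode, Atp5g1, Atp5g2 and Atp5g3, which differ in their import sequences. Atp5g3 was at 189, 225 and 189 CPM in the controls and at 213, 177 and 196 CPM in the MitoParks (-0.04, 95% interval -0.31 to 0.23). Atp5g1 was at 66.7, 80.6 and 76.4 CPM in the controls and at 85.8, 65.6 and 68.8 CPM in the MitoParks (-0.02, 95% interval -0.32 to 0.27). Atp5g2, with the promoter shown above, was at 62.9, 60.2 and 54.3 CPM in the controls and at 74.5, 51.9 and 62.0 CPM in the MitoParks (0.08, 95% interval -0.24 to 0.41). In all 3 genes, MitoPark 2 was the lowest of the 6 mice. Per length, Atp5g3 gave 57.7% ± 1.31 of the c ring RNA in the controls and 56.8% ± 1.70 in the MitoParks, Atp5g1 25.7% ± 1.62 and 25.5% ± 1.08, and Atp5g2 16.7% ± 1.71 and 17.7% ± 1.08 (SD, n = 3 each). The balance of the 3 genes thus differed between groups by less than the spread, although its absolute values rest on the transcript lengths chosen. With the longest principal transcript of each gene, that of Atp5g1 being 4715 bases, the mean shares over the 6 mice were 73.5% for Atp5g3, 4.20% for Atp5g1 and 22.3% for Atp5g2.

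Per length, Atp5b was highest of complex V at 540.4 CPM per kilobase, followed by Atp5a1 at 336, Atp5h at 292 and Atp5g3 at 278. The next 11 genes lay between 245 for Atp5l and 83.4 for Atp5g2, and most neighbours among them overlapped between mice. Atp5s and Atp5sl share the name but are not structural subunits of the enzyme, and they were the lowest, at 13.3 and 15.6 CPM per kilobase. Atp5sl was at 35.2, 39.0 and 38.1 CPM in the controls and at 35.1, 35.7 and 40.8 CPM in the MitoParks. Atp5s was at 17.0, 19.8 and 21.0 CPM in the controls and at 18.6, 23.3 and 18.9 CPM in the MitoParks. Both overlapped between the groups, with 95% intervals of -0.28 to 0.26 for Atp5sl and -0.25 to 0.40 for Atp5s. RefSeq lists 11 pseudogenes named after 6 members (Atp5c1, Atp5k, Atp5l, Cox5b, Cox7c and Uqcrh), none of which has a row of its own in the table, so reads of such copies cannot be told apart from those of the parent gene.

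The members moved together from mouse to mouse within the controls. Control 1 was below both other controls in 42 of the 45 members, against 36.2% of all genes tested. The exceptions were Uqcr10, Atp5e and Atp5g2. Control 1 was the lowest of the 6 mice in 24 members, against 17.8% of all genes, among them 11 of the 15 genes of complex IV, 9 of the 17 of complex V, 3 of the 9 of complex III and 1 of the 4 of complex II. Control 2 was the highest of the 6 mice in 16 members, against 14% of all genes, while control 1 was the highest in 0. The deviation of a gene was taken as its log2 level in a mouse minus its mean over the 6 mice. The median deviation of the 45 members was -0.16 in control 1, 0.11 in control 2 and 0.06 in control 3, and 0.04, -0.05 and -0.0021 in MitoParks 1, 2 and 3. For complex IV it was -0.23 in control 1 and 0.12 in both other controls, for complex V -0.15, 0.09 and 0.05, for complex III -0.11, 0.10 and 0.06, and for complex II -0.08, 0.16 and 0.03. Control 1 had the lowest median of the 6 mice for complexes III, IV and V, and MitoPark 3 for complex II.

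**Figure D3:**
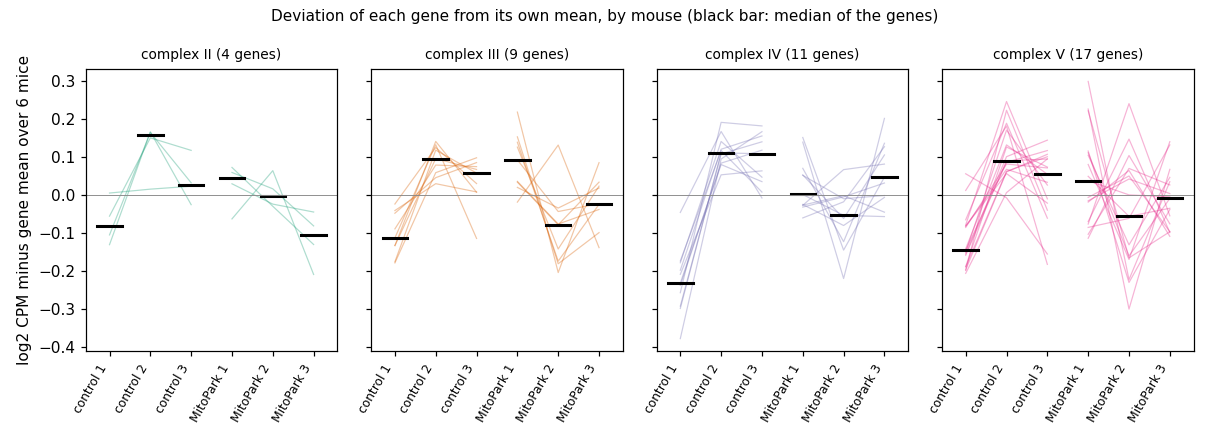
Deviation of each member with a mean of at least 5 CPM from its own mean over the 6 mice, in log2 units, by mouse and complex. Thin lines are genes, joined within each group, and bars are medians. Most genes lie below 0 in control 1 and above it in control 2, while in the MitoParks they lie on both sides.

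The direction of the comparison turned with single mice of either group. Without control 1, 41 members were lower and 4 higher in MitoParks, with a median log2 fold change of -0.09. Without control 2, 31 members were higher and 14 lower, with a median of 0.05. Without control 3 the count was 25 higher and 20 lower (median 0.0083), and without MitoPark 2 it was 24 higher and 21 lower (0.02). Without MitoPark 1 or MitoPark 3 it was 15 higher and 30 lower (-0.03 and -0.02). In none of these 6 fits did any member reach an unadjusted p below 0.05. For complex IV the median moved from 0.02 to -0.10 without control 1, with 0 of 15 genes higher, to 0.08 without control 2 or control 3, and to -0.04 without MitoPark 3, with 5 of 15 higher. Control 1 also had the lowest sums of the 6 mice for 3 of the 12 marker lists, those of oligodendrocytes, at 6335 CPM against 8752 to 16995 CPM in the others, of red cells, at 177 CPM against 281 to 392 CPM, and of microglia, at 132 CPM against 158 to 174 CPM. Among the controls alone, control 1 was also lowest for general neuron markers, at 4120 CPM against 4661 and 5427 CPM. The same held for dopamine neuron markers, at 449 CPM against 533 and 1479 CPM. For the remaining lists it was not the lowest control. Choroid plexus markers were highest in control 2. The part of these cells in the shared deviations was not tested.

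The mice also differed by transcript length and base composition across the whole table. In the shortest decile of all genes by transcript length (168 to 1242 bases), the median deviation was -0.09 in control 1 and 0.10 in control 2. In the longest decile it was 0.12 in control 1 and -0.07 in control 2. The members, at 371 to 3171 bases, are mostly short. By GC content, MitoParks 1 and 2 went in opposite directions. In the decile of all genes with the lowest GC content (31.0% to 42.1%) the median deviation was -0.15 in MitoPark 1 and 0.15 in MitoPark 2, and in the decile with the highest (58.4% to 77.4%) it was 0.13 and -0.15.

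Gradients with GC content and with length ran through the members too. Spearman's rho of the deviation with GC content was taken over the 41 members with at least 5 CPM. It was 0.56, -0.51 and 0.39 in MitoParks 1, 2 and 3, and 0.18, -0.13 and -0.38 in controls 1, 2 and 3. With transcript length it was -0.38, 0.44 and -0.37 in the MitoParks and 0.14, -0.26 and 0.15 in the controls. These are correlations across genes of 1 library, which share depth and base composition and are not independent replicates. Over the 14456 genes with a length, rho in the MitoParks was 0.37, -0.46 and 0.15 with GC content and -0.13, 0.20 and -0.11 with length. In MitoParks 1 and 2 the median deviations of the c ring genes were 0.22 and -0.17, and those of the small subunits of complex III 0.14 and -0.17. Not each of these genes followed its GC content. Uqcrb, at 42.2% GC, had 0.04 and -0.08, against -0.08 and 0.10 for all genes of its decile (42.1% to 44.6%). In the head and rotor the genes differed among themselves, with deviations in MitoParks 1 and 2 of 0.23 and -0.30 for Atp5e, 0.08 and -0.17 for Atp5d and -0.07 and 0.15 for Atp5c1. After correction for GC content, 16 members were higher in MitoParks, and after correction for length also 16, with no p below 0.05 in either. The part of library composition in the deviations was not tested further.

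**Figure D4:**
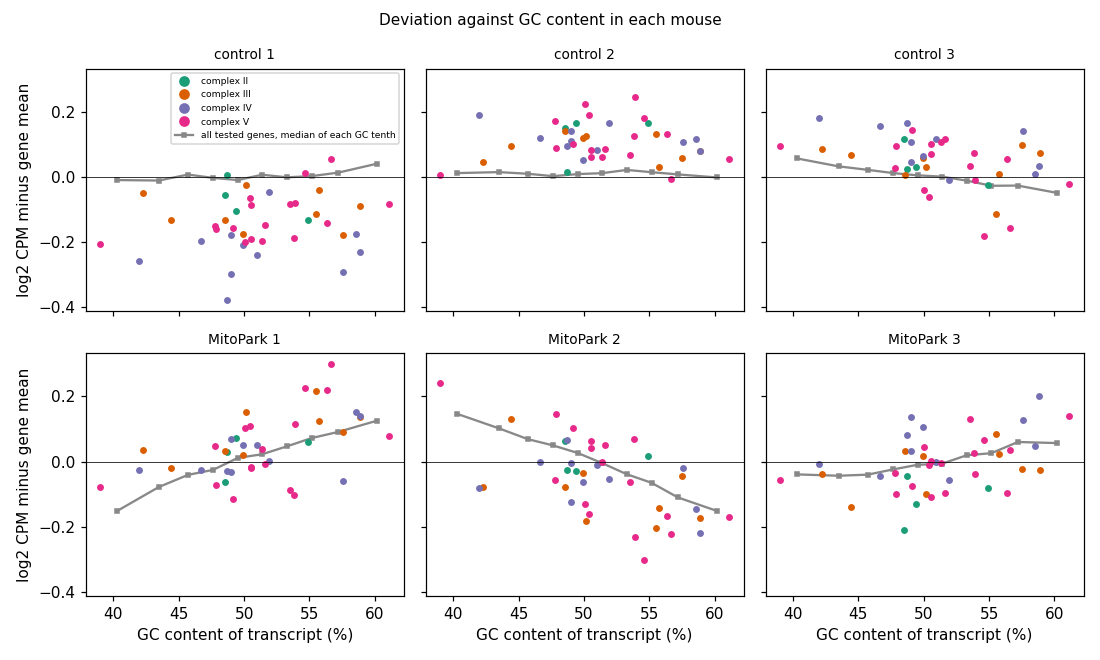
Median deviation of all genes in deciles of GC content (line) and deviation of the 41 members with at least 5 CPM (points) against GC content in percent, 1 panel per mouse, in log2 units. The lines of MitoParks 1 and 2 run in opposite directions, and the points of the members rise or fall with them as a set, though not each gene does.

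Other genes that serve these complexes were set beside the subunits. Of 53 listed genes, 44 were tested, all of them nuclear, while the 6 listed that mitochondrial DNA encodes were not found by symbol. Of those tested, 0 had an unadjusted p below 0.05 in edgeR. By sign 18 were higher and 26 lower, and the smallest unadjusted p was 0.240. Of the assembly factors of complex II 4 were tested (1 higher, 3 lower, median log2 fold change -0.15), of complex III 5 (1 higher, 4 lower, -0.08), of complex IV with copper delivery 26 (12 higher, 14 lower, -0.02), and of the complex V group 6 (2 higher, 4 lower, -0.03). Sdhaf2, which puts the flavin onto Sdha, had this p, with 40.2, 42.5 and 45.1 CPM in the controls and 38.4, 42.6 and 33.3 CPM in the MitoParks (-0.16 ± 0.13, SE). MitoPark 3 was lowest, as it was for Sdha. Surf1, an assembly factor of complex IV, was at 43.9, 56.1 and 53.3 CPM in the controls and at 56.8, 49.0 and 54.0 CPM in the MitoParks, with control 1 lowest.

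Cycs, the cytochrome c that carries electrons from complex III to complex IV, was at 200.016, 260.6 and 263 CPM in the controls and at 192, 269.9 and 226 CPM in the MitoParks (-0.07 ± 0.16, SE). Control 1 and MitoPark 1 were its lowest mice. Ndufa4, a subunit of complex IV despite its name, was at 123, 138 and 131 CPM in the controls and at 146, 124 and 137 CPM in the MitoParks (0.06 ± 0.10, SE). Its paralogue Ndufa4l2 had the largest estimate of these lists, 0.49 ± 0.47 (SE), with 8, 13 and 27 counts in the controls and 21, 13 and 26 in the MitoParks. The subunits of these complexes that mitochondrial DNA encodes were not analysed here.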

How the data were processed

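Poly(A) RNA of the SN of 3 MitoParks and 3 littermate controls was sequenced from strand-specific libraries. The authors deposited 1 table of expected counts per gene, which were estimated with RSEM 1.2.15 on Bowtie2 2.1.0 alignments per the labels. The build named there is human although the mice and the gene symbols are murine, so the build of the counts is unresolved and no coordinate was taken from it. The expected counts were rounded and tested with edgeR 4.0.16 (TMM, quasi-likelihood F test, both groups in 1 fit, no covariate). A gene was tested if its mean exceeded 1 CPM in at least 1 group, which left 14568 of 24054 genes with totals of 8140777 to 10528602 counts per mouse. Cutoffs were an unadjusted p below 0.05 and a change above 1.5-fold, and adjusted p-values are Benjamini-Hochberg over all tested genes. MitoPark libraries are marked PD in the labels, and each library is 1 mouse by the study's text. The labels give same-numbered mice nothing in common but the number, and whether they were paired is not known.

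Levels per length used the shortest principal GENCODE M21 transcript with a RefSeq match, and deviations used log2(CPM + 0.1). The full length of that transcript was used, the same in every mouse, so the order of genes by level per length rests on it. Alternatives were DESeq2 1.42.0, other scalings, no filter, unrounded counts, a replicate block and leaving out each mouse. The fits were tested on simulated data. Members and gene lists were chosen with earlier results of these data known. All members are accounted for. Values were given for a set of main subunits of each complex, for the member with the smallest p and those with the highest and lowest change in each complex, and for members not classed as subunits. Cox7b, Atp5h, Atp5o and the pathway genes named were added after their values were seen.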

Additional observations from a re-analysis of the deposited data

How the results depend on the processing

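No member reached an unadjusted p of 0.05 under any alternative: DESeq2, size-factor (RLE) or total-count scaling, no filter, unrounded counts, a replicate block, leaving out each mouse, or GC or length correction, of which the last 2 were chosen after seeing the data. Small log2 fold changes turned sign. With total counts the medians of complexes III and V became 0.0023 and 0.0037. For single genes they were, with total counts, 0.0052 for Atp5sl, 0.013 for Cox4i2, 0.0037 for Cox5a, 0.0039 for Sdhb and 0.0023 for Uqcrfs1, with DESeq2 0.0072 for Cox4i2, with GC correction -0.013 for Cyc1 and -0.0086 for Uqcrc1, and with length correction -0.0042 for Cyc1. Leaving out 1 mouse at a time gave ranges across 0, for Atp5b -0.11 to 0.0094, Atp5c1 -0.091 to 0.029, Atp5g1 -0.14 to 0.058, Atp5g2 -0.046 to 0.21, Atp5g3 -0.099 to 0.048, Atp5s -0.030 to 0.14, Atp5sl -0.082 to 0.039, Cox4i1 -0.10 to 0.097, Cox4i2 -0.52 to 0.48, Cox5a -0.091 to 0.060, Cox5b -0.072 to 0.13, Cox6a1 -0.00071 to 0.21, Cox6b2 -0.23 to 0.27, Cox7a1 -0.18 to 0.28, Cox7a2l -0.019 to 0.11, Cox8a -0.036 to 0.12, Cyc1 -0.047 to 0.083, Sdhb -0.070 to 0.077, Sdhd -0.12 to 0.0082, Uqcr10 -0.017 to 0.19, Uqcrc1 -0.064 to 0.065, Uqcrc2 -0.084 to 0.044, Uqcrfs1 -0.073 to 0.059. The cause was not tested. With the replicate block, 0 members had a p below 0.05 and 19 were higher in MitoParks. The correlations of same-numbered mice were 0.35, -0.07 and 0.28. Mice of different number were not compared, so these values cannot decide whether the numbers pair the mice. The block changed no call.

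Shares moved by construction with the length used. Without division by length, Atp5g1 gave 22.2% and Atp5g3 59.5% of the c ring RNA over the 6 mice and Cox7a1 1.28% of its pair. With the longest principal transcript, an alternative also chosen after seeing the data, Atp5g1 gave 4.20%, Atp5g2 22.3% and Atp5g3 73.5%. The 4 low isoforms of complex IV had 3 to 27 counts per mouse and intervals wider than 1.5-fold.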
